A study of Rattus norvegicus with 12 samples.

Results

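The matrix proteases of the left atrium, with their inhibitors and the enzymes that crosslink the matrix, were followed across 12 rat libraries. The 56 genes were taken by symbol from the 21239 genes with counts: 23 matrix metalloproteinases (Mmp), 19 secreted ADAMTS proteases, 5 ADAMTS-like proteins (Adamtsl), 4 tissue inhibitors of metalloproteinases (Timp) and 5 lysyl oxidases (Lox, Loxl). The study asked how hypertension and 2 antihypertensive treatments alter the left atrial transcriptome, with RNA-seq of 3 libraries in each of 4 groups. The male rats were bought at 14 weeks of age and dosed for 4 weeks. Normotensive Wistar-Kyoto (WKY) rats and spontaneously hypertensive rats (SHR) were given saline at 7.5 ml/kg/day. Further SHRs were given valsartan, an angiotensin receptor blocker, at 30 mg/kg/day and formed the ARB group, or the combination sacubitril/valsartan, which adds a neprilysin inhibitor, at 60 mg/kg/day and formed the ARNI group. The SHR is an inbred strain, so its pressure and its genetic background go together in every comparison with WKY rats.

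The extracellular matrix is held in balance by these families. MMPs are zinc proteases that cut collagens, elastin and many cell surface proteins, and TIMPs block them by sitting in the active site. ADAMTS enzymes cut proteoglycans such as versican, trim procollagens or act on fibrillin microfibrils, while the ADAMTS-like proteins lack the catalytic domain and bind microfibrils. Lysyl oxidases crosslink collagen and elastin and so stiffen the matrix, a process studied in atrial fibrosis.

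The labels and the libraries raised 2 limits. The strain words given for the 6 saline libraries contradict their bracketed library names. The names were used here; if the strain words hold instead, every SHR against WKY direction turns round. Mettl24 was at 3.02 to 3.58 reads per 1000000 counted (CPM) in the 3 libraries named WKY and at 0 in those named SHR, and Ndufa10l1 was at 0 in the former and at 54 to 101 CPM in the latter, as in the treated SHRs (59.2 to 119 CPM), which the labels give without conflict. All libraries are labelled left atrium, but the WKY libraries held the ventricular light chain Myl2 at 3489 to 3776 CPM and the atrial markers Myl7 and Sln at no more than 15.9 and 0.444 CPM. ARNI replicate 2 stood with them in these 3 genes, with Myl2 at 4161 CPM, Myl7 at 9.67 CPM and Sln at 1.57 CPM. SHR replicate 2 and ARB replicate 3 held both (Myl2 at 2298 and 2573 CPM, Myl7 at 4478 and 5144 CPM), and Myl2 was at 0.135 to 24.2 CPM in the other 6 libraries. The summed level of the 10 atrial markers was 155 to 369 CPM in the WKY libraries and 28096 to 78080 CPM in the untreated SHRs. That of the 8 ventricular markers was 44186 to 44572 and 1396 to 10661 CPM. ARNI replicate 2 had sums of 151 and 19441 CPM, with Myh7 at 5907 CPM against 32130 to 32744 CPM in the WKY libraries. The atrial marker Kcna5 was higher in the WKY (7.13 to 14.1 CPM) than in the untreated SHR libraries (1.2 to 5.6 CPM). The ventricular marker Lrrc10 was lower in the WKY libraries (17.7 to 24.6 and 38.2 to 75 CPM), and Mylk3 overlapped. The hypertensive state, the strain and the chamber markers cannot be told apart between the WKY and SHR groups. In whole tissue, moreover, fewer cells of a type and less RNA per cell cannot be told apart.

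A run of 10 MMP genes lies side by side on one rat chromosome, in the order Mmp13, Mmp12, Mmp1b, Mmp3, Mmp1, Mmp10, Mmp8, Mmp27, Mmp20 and Mmp7, with 0 other protein-coding genes between them in the RefSeq annotation (GRCr8). They encode collagenases, stromelysins, matrilysin, macrophage elastase and enamelysin, several of which tissues make mainly when inflamed or under repair. The promoters of 7 of them are shown because they carry the same pair of short motifs, next to 3 promoters from members that were expressed. Each line gives the 100 to 160 bases just before the gene start, 5′ to 3′ on the gene's strand. They are from RefSeq (GRCr8, a later build than the Rnor_6.0 of the counts). Capitals mark TGANTCA (N is any base), a loose form of the AP-1 motif, and TATAAA, the TATA box. The stricter AP-1 form has C or G at N, and Mmp20, with A there, falls outside it. In the second set capitals also mark GGGCGG or its reverse complement, the Sp1 motif.
Mmp13, chr8:12782729-12782828, plus strand: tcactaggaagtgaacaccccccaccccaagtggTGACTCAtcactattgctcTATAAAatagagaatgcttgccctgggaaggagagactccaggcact
Mmp12, chr8:12866552-12866651, plus strand: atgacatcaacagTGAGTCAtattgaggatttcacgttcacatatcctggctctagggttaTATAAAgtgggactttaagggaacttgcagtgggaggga
Mmp3, chr8:12925181-12925280, plus strand: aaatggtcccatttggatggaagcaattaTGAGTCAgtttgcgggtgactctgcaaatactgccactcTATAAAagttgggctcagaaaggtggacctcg
Mmp1, chr8:12943353-12943452, plus strand: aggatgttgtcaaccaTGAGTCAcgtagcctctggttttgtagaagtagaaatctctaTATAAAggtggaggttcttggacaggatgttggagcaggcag
Mmp10, chr8:12974607-12974706, plus strand: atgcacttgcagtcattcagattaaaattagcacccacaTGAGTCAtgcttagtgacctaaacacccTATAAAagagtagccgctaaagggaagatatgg
Mmp20, chr8:13074179-13074278, plus strand: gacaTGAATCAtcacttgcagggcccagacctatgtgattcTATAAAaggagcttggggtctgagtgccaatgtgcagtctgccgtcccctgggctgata
Mmp7, chr8:13132943-13133042, plus strand: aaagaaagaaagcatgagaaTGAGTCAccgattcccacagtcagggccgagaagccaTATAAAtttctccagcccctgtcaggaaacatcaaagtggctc

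For comparison, the promoters of Timp3, Mmp15 and Adamtsl2, the first from an inhibitor, the second from a membrane-bound MMP and the third from an ADAMTS-like gene, read as follows.
Timp3, chr7:19459559-19459718, minus strand: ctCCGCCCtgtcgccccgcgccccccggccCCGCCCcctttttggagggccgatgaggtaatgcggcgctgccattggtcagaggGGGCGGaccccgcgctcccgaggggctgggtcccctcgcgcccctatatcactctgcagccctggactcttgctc
Mmp15, chr19:9691001-9691150, minus strand: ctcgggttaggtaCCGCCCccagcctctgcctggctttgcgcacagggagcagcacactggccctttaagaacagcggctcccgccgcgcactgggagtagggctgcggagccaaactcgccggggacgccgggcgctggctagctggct
Adamtsl2, chr3:30802600-30802699, plus strand: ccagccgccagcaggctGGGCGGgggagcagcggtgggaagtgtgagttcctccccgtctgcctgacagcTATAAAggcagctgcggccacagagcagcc

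Promoters were matched by gene ID for 43 of the 56 members, among them all 10 genes of the cluster. A member was counted once if any of its promoter entries held the motif, while the share of all promoters is per entry. In the 250 bases before the start and on both strands, TGANTCA was present in 7 of the 10 cluster genes, in 0 of the 33 other members and in 6.34% of all 33469 promoters. TATAAA was present in 8 of the 10, in 6 of the 33 and in 12.9% of all promoters. GGGCGG was present in 0 of the 10, in 21 of the 33 and in 30.5% of all promoters. In the 7 cluster promoters shown the TATA box began 32 to 59 bases before the gene start and TGANTCA 61 to 96 bases before it. These letters are a description of the sequence, and binding was not measured. The motifs shown do not overlap each other.

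The cluster was close to silent in every library. Its 10 genes together drew 32 reads over the 12 libraries. Of these, 6 genes, Mmp1, Mmp10, Mmp13, Mmp1b, Mmp27 and Mmp7, had 0 reads, so that each lay below the 0.190 to 0.267 CPM that 3 reads make in these libraries; this covers counting error only. The highest value was that of Mmp8, the neutrophil collagenase, at 0.435 CPM (5 reads) in WKY replicate 2, where the summed neutrophil markers were at 3.84 CPM.

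Outside the cluster, 8 more members fell below the filter on low counts in the SHR and WKY libraries, so that 18 of the 56 were not tested there, with a highest value of 1.5 CPM. Among these was Mmp9, the second gelatinase, at 0.0889 to 0.174 CPM in the WKY, 0.0788 to 0.339 CPM in the SHR, 0.206 to 0.727 CPM in the ARB and 0.0678 to 0.19 CPM in the ARNI libraries. The remaining 38 were measured well enough for a test. A mean of at least 100 CPM over the 12 libraries was reached by 6 members, Mmp2, Mmp15, Timp2, Timp3, Adamts7 and Adamtsl4.

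**Figure D1:**
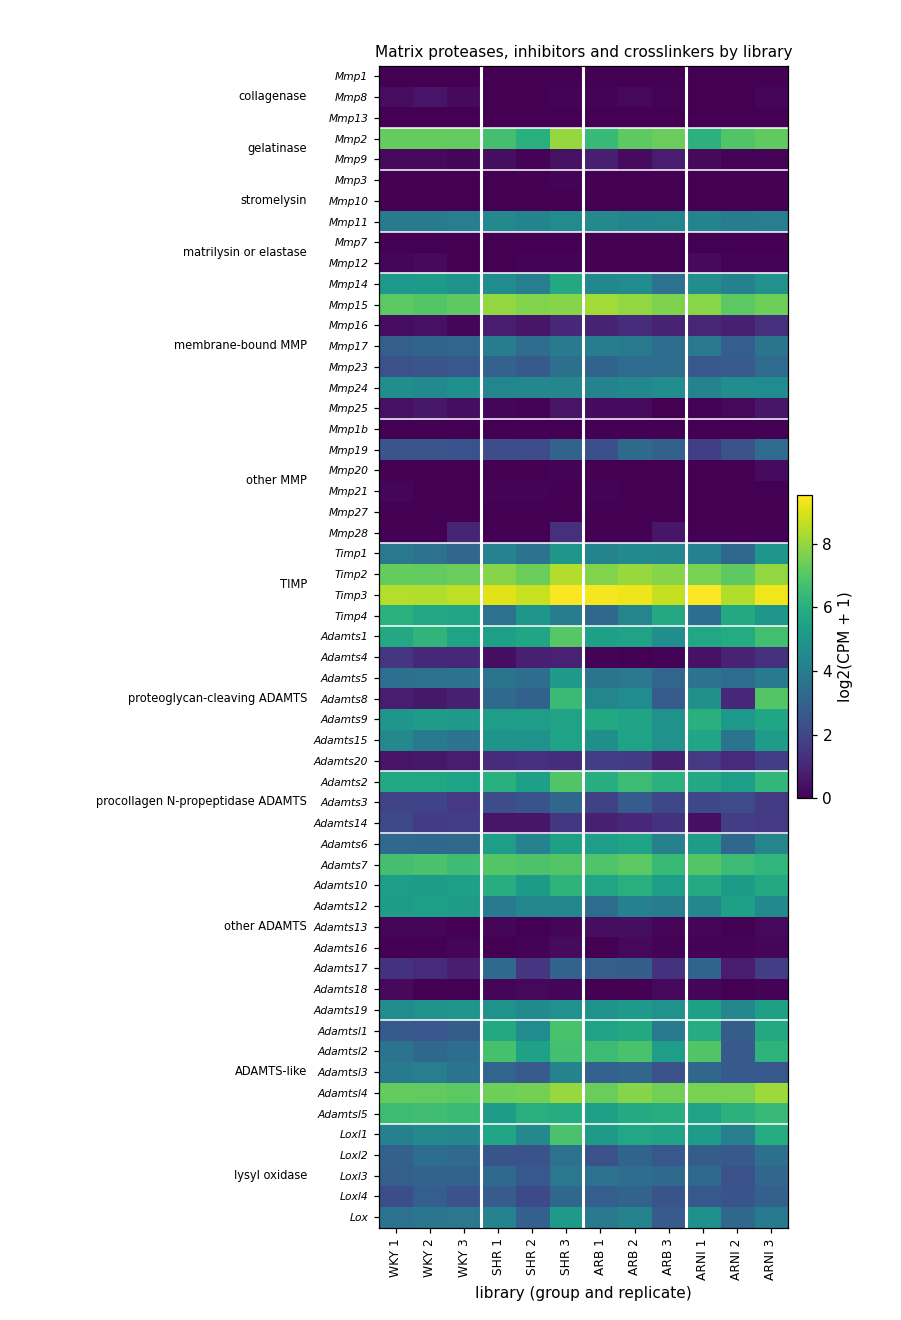
Levels of the 56 members (rows, grouped by role) in the 12 libraries (columns), as log2(CPM + 1); white lines separate groups and roles. The collagenase, stromelysin and matrilysin genes of the cluster stay dark in all 12 libraries, while Mmp2, Mmp15, Timp2, Timp3, Adamts7 and Adamtsl4 are bright throughout.

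Between the SHR and WKY groups, 8 of the 9 members called were ADAMTS or ADAMTS-like genes, which were also the larger part of the 38 members tested. Those tested were 7 proteoglycan-cleaving ADAMTS genes, 3 procollagen N-propeptidases, 6 other ADAMTS genes and 5 ADAMTS-like genes. Of the 38 members tested, 9 (23.7%) passed an adjusted p of 0.05 with a log2 fold change of at least 1 in either direction (edgeR quasi-likelihood test, Benjamini-Hochberg adjustment over all genes), against a background of 8.89% of the 13794 genes tested. Of the 9, 7 were higher in the SHR group, Adamts8, Adamtsl1, Adamtsl2, Adamts17, Adamts6, Adamts20 and Adamts15, and 2 were lower, Timp4 and Adamts12. Adamts8 and Adamts20 were at or below 0.8 CPM in the WKY libraries and passed the filter on low counts through their SHR values. Adamts17, at 0.739 CPM in WKY replicate 3, also needed SHR libraries to pass it. With no filter, 8 of 50 members and 1238 of all genes were called, and Adamts20 was not among them. By the adjusted p alone 14 of 38 members (36.8%) differed, 10 higher and 4 lower, against 20.6% of all genes. The 2 groups did not overlap in CPM for 23 of the 38 (60.5%), against 49.6% of all genes. The median log2 fold change was 0.38 over the 38 members and 0.01 over all genes tested. The count of 9 was 3, 2 and 2 without WKY replicate 1, 2 or 3, and 5, 11 and 7 without SHR replicate 1, 2 or 3. Over all genes the count of 1226 moved with it, to 393, 353 and 348 and to 577, 2205 and 1147. In 1 fit of all 12 libraries, Adamtsl1 alone kept its call (edgeR adjusted p = 0.0363), and 579 of all genes were called. Markers of other cells moved with this contrast, some up and some down. The 4 endocardial markers summed to 256 to 307 CPM in the WKY and 422 to 948 CPM in the SHR group, with ARNI replicate 2 at 288 CPM. Nfatc1, of that list, overlapped (17.1 to 21.1 and 19.7 to 29.7 CPM). The 9 epicardial markers summed to 63.6 to 86.9 and 230 to 484 CPM, with ARNI replicate 2 at 49.9 CPM. Wt1, of that list, overlapped (14.2 to 21.2 and 13.6 to 18 CPM). The 5 mast cell markers summed to 26.8 to 29.6 CPM in the WKY and 7.76 to 24.4 CPM in the SHR group. The 8 smooth muscle or pericyte markers summed to 609 to 688 and 521 to 543 CPM. No endocardial or epicardial marker was at 0 in any library. The part of all these cells in the results was not tested.

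**Figure D2:**
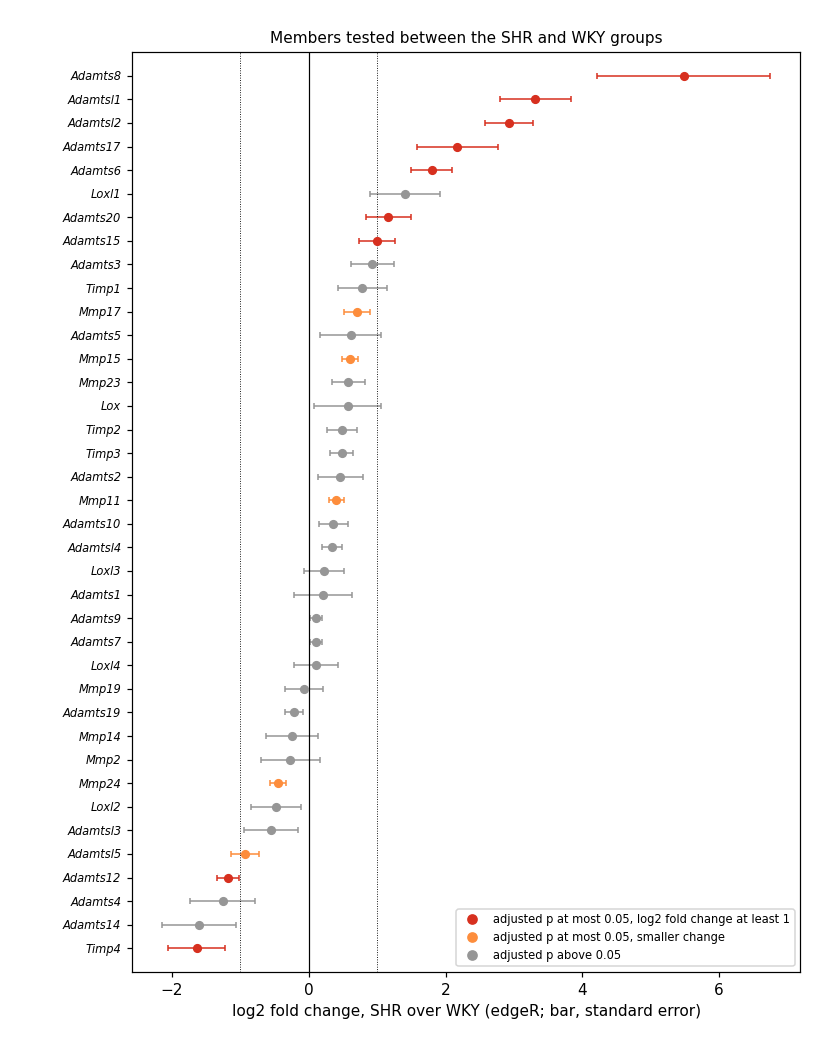
Log2 fold change, SHR over WKY, of the 38 members tested (points; bars, standard error; 3 libraries a group), with dotted lines at a log2 fold change of 1 either way. On the right, 7 members pass both thresholds, led by Adamts8 at 5.48, and Timp4 and Adamts12 pass both on the left.

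Of the 5 ADAMTS-like genes, Adamtsl1 and Adamtsl2 rose in the SHR group. Adamtsl2 (gene ID 311827), a fibrillin-binding glycoprotein linked to TGF-β availability, was at 11.4, 8.26 and 9.78 CPM in the WKY, 107, 42.3 and 100 CPM in the SHR, 90.6, 109 and 39.2 CPM in the ARB and 121, 5.35 and 69.4 CPM in the ARNI libraries. The SHR and ARB libraries were all above the WKY libraries, while ARNI replicate 2 lay below them. Adamtsl2 was 7.62-fold higher in the SHR than in the WKY group (log2 fold change 2.93, SE 0.35, edgeR adjusted p = 0.00567), and it kept an adjusted p of at most 0.0421 when any 1 library was left out. In 1 fit of all 12 libraries the adjusted p was 0.0524, and with the chamber marker score as a covariate the log2 fold change turned to -0.56 (adjusted p = 0.37). Adamtsl1 (gene ID 362539), or punctin, was at 5.54, 5.04 and 6.04 CPM in the WKY, 54.6, 23.1 and 108 CPM in the SHR, 44.6, 54.1 and 14 CPM in the ARB and 59, 5.97 and 52.7 CPM in the ARNI libraries. ARNI replicate 2 alone among the SHRs sat within the WKY range, and SHR replicate 2 and ARB replicate 3, the libraries with both sets of chamber markers, were the next lowest. Adamtsl1 was 9.91-fold higher in the SHR group (log2 fold change 3.31, SE 0.52, edgeR adjusted p = 0.0118), with an adjusted p of up to 0.0655 when 1 library was left out.

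Of the 3 other ADAMTS-like genes, 1 fell and 2 did not pass the test. Adamtsl5 (gene ID 314626), a microfibril-associated protein, was at 91.5, 96.3 and 89.9 CPM in the WKY and 37.8, 62.7 and 59.1 CPM in the untreated SHRs. It was 1.91-fold lower in the SHR group (log2 fold change -0.93, SE 0.20, edgeR adjusted p = 0.0241), with an adjusted p of 0.0826, 0.0907 and 0.085 without WKY replicate 1, 2 or 3. In the treated rats it was at 41.9 to 86.3 CPM, all below the lowest WKY library, ARNI replicate 2 (68.8 CPM) included. Adamtsl4, linked to the fibrillin fibres of the eye, and Adamtsl3 had log2 fold changes of 0.34 (SE 0.15) and -0.55 (SE 0.39) and edgeR adjusted p values of 0.145 and 0.329.

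**Figure D3:**
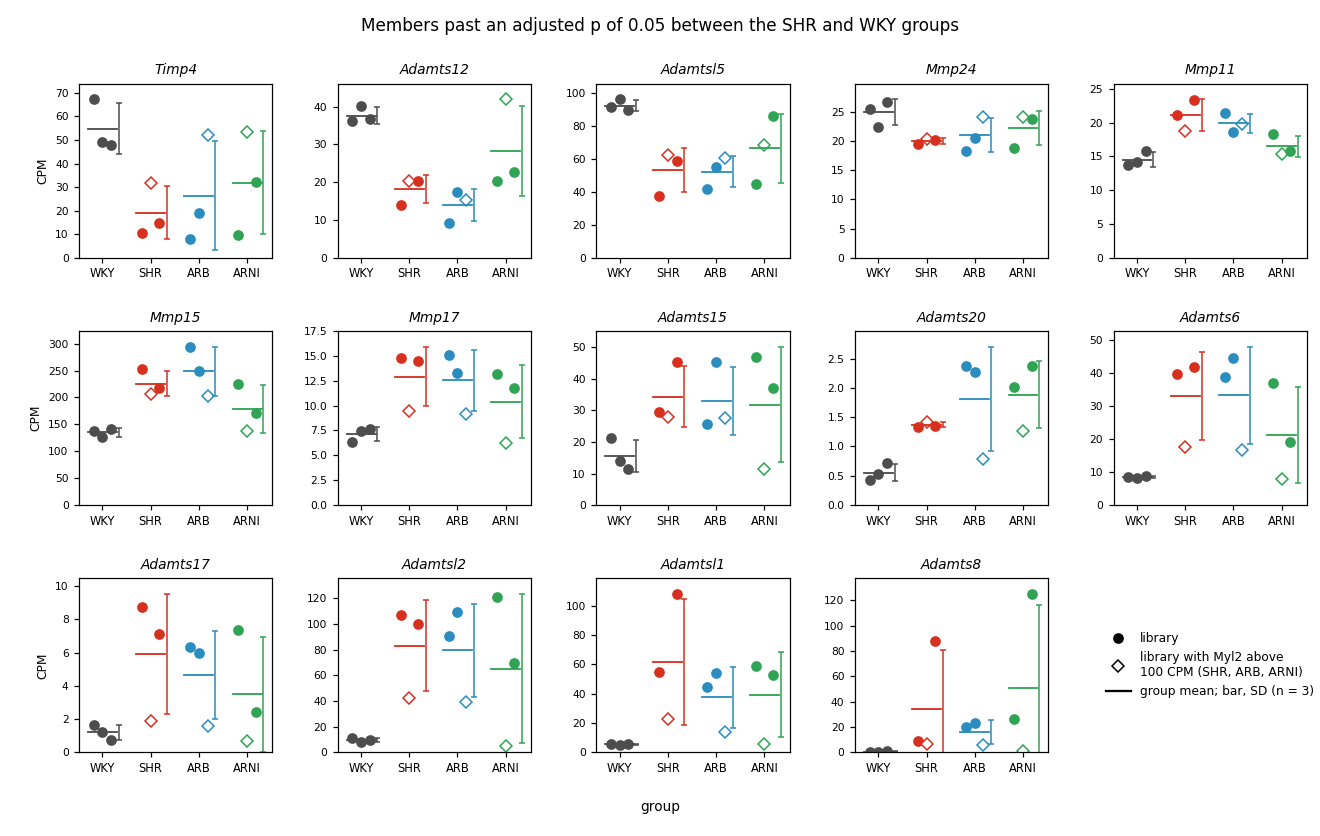
CPM (linear axes from 0) of the 14 members with an adjusted p of at most 0.05 between the SHR and WKY groups, ordered by fold change; points are libraries, lines group means and bars the SD of 3 libraries, cut at 0. Open diamonds mark SHR replicate 2, ARB replicate 3 and ARNI replicate 2; ARNI replicate 2 lies near the WKY points for Timp4, Adamts12, Adamts6, Adamtsl1 and Adamtsl2 but not for Adamts20.

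Of the 7 proteoglycan-cleaving ADAMTS genes, 3 were higher in the SHR group and 0 lower. Adamts8 (gene ID 300475) was at 0.682, 0.522 and 0.8 CPM in the WKY, 8.83, 6.7 and 88.2 CPM in the SHR, 19.7, 23 and 5.71 CPM in the ARB and 26.4, 1.1 and 125 CPM in the ARNI libraries. It had the largest difference of the 38 members (44.6-fold, log2 fold change 5.48, SE 1.26, edgeR adjusted p = 0.0296). Without SHR replicate 3 the log2 fold change was 3.43 (SE 0.27, edgeR adjusted p = 0.00495), and without any 1 of the WKY libraries the adjusted p was 0.107 to 0.111. SHR replicate 3 and ARNI replicate 3, its 2 highest libraries, had the highest sums of the 10 fibroblast markers and of the 9 epicardial markers. The fibroblast sums were 8532 and 5703 CPM against 2345 to 4947 CPM in the other 10 libraries. The epicardial sums were 484 and 344 CPM against 49.9 to 303 CPM. The fibroblast list was split in ARNI replicate 3. Col1a1 and Col3a1 were at 792 and 1358 CPM there, against 201 to 231 and 620 to 688 CPM in the WKY libraries. Pdgfra, Lum and Dcn, at 78.4, 97.5 and 612 CPM, were below every WKY library. The part of these cells in the result was not tested. DESeq2 gave no adjusted p for Adamts8.

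Adamts15 (gene ID 300474), a versican-cleaving enzyme whose gene lies next to Adamts8 in the RefSeq annotation, was at 21.3, 14 and 11.3 CPM in the WKY and 29.6, 28 and 45.5 CPM in the untreated SHRs. It was 2-fold higher in the SHR group (log2 fold change 1.0, SE 0.26, edgeR adjusted p = 0.0407), a call kept in 2 of the 6 fits that leave out 1 library (adjusted p up to 0.138). The ARB libraries were at 25.8, 45.4 and 27.6 CPM and the ARNI libraries at 47.1, 11.5 and 37 CPM, so that ARNI replicate 2 again fell among the WKY values. Adamts20 (gene ID 315263), known from pigment cell migration and palate closure, was low, at 0.426, 0.522 and 0.711 CPM in the WKY and 1.34, 1.42 and 1.35 CPM in the untreated SHRs. Its rise was 2.24-fold (log2 fold change 1.16, SE 0.33, edgeR adjusted p = 0.0496), and the adjusted p was 0.074 to 0.166 when any 1 library was left out. The call was also lost with no filter on low counts (edgeR adjusted p = 0.0841) and with RLE scaling (edgeR adjusted p = 0.0515). DESeq2 did not call it either (adjusted p = 0.153). All 6 treated libraries, at 0.793 to 2.38 CPM, were above the WKY libraries, and here ARNI replicate 2, at 1.26 CPM, was not among them.

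Adamts1, Adamts4 and Adamts5, the classic aggrecanase and versican-cleaving enzymes, did not pass the test. Adamts1 was at 53.2, 73.2 and 44.6 CPM in the WKY and 41.5, 49 and 131 CPM in the untreated SHRs, a log2 fold change of 0.21 (SE 0.42, edgeR adjusted p = 0.735). Adamts4 was at 1.09 to 1.85 CPM in the WKY and 0.28 to 0.824 CPM in the untreated SHRs (log2 fold change -1.26, SE 0.48, edgeR adjusted p = 0.104). Adamts5 was at 10.2 to 11.4 CPM in the WKY libraries and at 11.5, 9.62 and 34.8 CPM in the untreated SHRs (log2 fold change 0.61, SE 0.45, edgeR adjusted p = 0.346). SHR replicate 3, with the highest fibroblast marker sum, held the top value of Adamts1 and of Adamts5.

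Among the other ADAMTS genes 2 were higher and 1 was lower in the SHR group. Adamts6 (gene ID 361886), which acts on fibrillin microfibrils and is needed for heart development, was at 8.61, 8.09 and 8.89 CPM in the WKY, 39.6, 17.6 and 41.6 CPM in the SHR, 38.6, 44.4 and 16.6 CPM in the ARB and 36.8, 7.94 and 19.1 CPM in the ARNI libraries. It was 3.47-fold higher in the SHR group (log2 fold change 1.80, SE 0.30, edgeR adjusted p = 0.0133). Adamts17 (gene ID 293004), a fibrillin-associated protease, was at 1.64, 1.23 and 0.739 CPM in the WKY and 8.75, 1.87 and 7.14 CPM in the untreated SHRs, a 4.49-fold difference (log2 fold change 2.17, SE 0.59, edgeR adjusted p = 0.045). Both were lowest in SHR replicate 2 within their group. With 1 library left out, Adamts6 had an adjusted p of up to 0.0697 and Adamts17 of up to 0.147.

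Adamts12 (gene ID 294809), a protease that cuts cartilage oligomeric matrix protein, went the other way. It was at 36.1, 40.1 and 36.6 CPM in the WKY, 14, 20.3 and 20.3 CPM in the SHR, 9.32, 17.3 and 15.4 CPM in the ARB and 20.2, 41.9 and 22.6 CPM in the ARNI libraries. Every SHR and ARB library was below the WKY libraries, and ARNI replicate 2 was above them. Adamts12 was 2.27-fold lower in the SHR group (log2 fold change -1.18, SE 0.16, edgeR adjusted p = 0.00811), and its adjusted p was at most 0.0492 when any 1 library was left out. Adamts7, Adamts10 and Adamts19 had log2 fold changes of 0.11 (SE 0.09), 0.36 (SE 0.21) and -0.22 (SE 0.13), and none of the 3 passed the test.

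By edgeR none of the 3 procollagen N-propeptidases, which trim fibrillar procollagens, passed the test. Adamts2 was at 51.7, 49.8 and 44.6 CPM in the WKY and 64.4, 40.1 and 121 CPM in the untreated SHRs (log2 fold change 0.46, SE 0.33, edgeR adjusted p = 0.333). Adamts3 was at 1.96 to 2.9 CPM in the WKY and 3.74 to 7.86 CPM in the untreated SHRs, without overlap, and Adamts14 at 2.17 to 3.24 and 0.468 to 1.9 CPM, again without overlap but in the other direction. Their edgeR adjusted p values were 0.0761 and 0.0768. Adamts14 was called lower by DESeq2 (log2 fold change -1.64, adjusted p = 0.0438) and by edgeR without SHR replicate 3 (log2 fold change -2.54, adjusted p = 0.0137).

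Of the 4 inhibitors, edgeR called only Timp4. Timp4 (gene ID 680130), a TIMP enriched in the heart, was at 67.2, 49.3 and 48 CPM in the WKY, 10.7, 31.8 and 14.9 CPM in the SHR, 7.94, 19 and 52.3 CPM in the ARB and 9.86, 53.5 and 32.2 CPM in the ARNI libraries. It was 3.11-fold lower in the SHR group (log2 fold change -1.64, SE 0.42, edgeR adjusted p = 0.0391). Its values also moved with the chamber markers, whose part in the result cannot be told apart from the strain. Within the SHR, ARB and ARNI groups the highest Timp4 was in each case the library with Myl2 above 100 CPM, and ARNI replicate 2 and ARB replicate 3 lay within the WKY range. Without SHR replicate 2 the log2 fold change was -2.27 (edgeR adjusted p = 0.000415), and over the other 5 leave-outs the adjusted p was above 0.05.

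The other TIMPs lay on the higher side in the SHR group without passing the test by edgeR. Timp3, which stays bound to the matrix and inhibits ADAMTS enzymes as well as MMPs, was at 350, 339 and 385 CPM in the WKY and 547, 415 and 703 CPM in the untreated SHRs. The groups did not overlap, yet the difference missed the threshold (log2 fold change 0.48, SE 0.17, edgeR adjusted p = 0.0867); DESeq2 placed it just inside the threshold for the adjusted p alone (0.47, adjusted p = 0.0472). Timp2 was at 153, 150 and 163 CPM in the WKY and 221, 164 and 338 CPM in the untreated SHRs (log2 fold change 0.48, SE 0.22, edgeR adjusted p = 0.153). Timp1, the inducible member, was at 12.9, 11.1 and 7.73 CPM in the WKY and 17.5, 11.4 and 31.8 CPM in the untreated SHRs (log2 fold change 0.78, SE 0.36, edgeR adjusted p = 0.153). Timp1, Timp2 and Timp3 all had their lowest SHR value in replicate 2 and, among the treated rats, their lowest in ARNI replicate 2.

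Among the MMPs the differences were small and mostly in membrane-bound members. Mmp15 (gene ID 291848), a membrane-type MMP, was at 138, 126 and 142 CPM in the WKY, 252, 207 and 218 CPM in the SHR, 294, 249 and 203 CPM in the ARB and 225, 138 and 172 CPM in the ARNI libraries. It was 1.52-fold higher in the SHR group (log2 fold change 0.60, SE 0.12, edgeR adjusted p = 0.0206). Mmp17 (gene ID 288626), a membrane-type MMP held by a lipid anchor, was at 6.31 to 7.64 CPM in the WKY and 9.46 to 14.8 CPM in the untreated SHRs, 1.64-fold higher (log2 fold change 0.71, SE 0.19, edgeR adjusted p = 0.0436). Mmp24 (gene ID 83513), a membrane-type MMP best known from neurons, was at 25.5, 22.4 and 26.7 CPM in the WKY and 19.4, 20.4 and 20.1 CPM in the untreated SHRs, 1.37-fold lower (log2 fold change -0.45, SE 0.11, edgeR adjusted p = 0.0371). Mmp11 (gene ID 25481), a stromelysin activated inside the cell by furin, was at 13.7, 14.1 and 15.8 CPM in the WKY and 21.2, 18.8 and 23.4 CPM in the untreated SHRs, 1.32-fold higher (log2 fold change 0.40, SE 0.11, edgeR adjusted p = 0.0494). Each of these 4 lost its call in at least 4 of the 6 fits that leave out 1 library.

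The gelatinase Mmp2 and its activator did not pass the test. Mmp2 (gene ID 81686), the gelatinase of resting fibroblasts, was at 154, 155 and 149 CPM in the WKY and 103, 65.1 and 258 CPM in the untreated SHRs, so that the 3 SHR values surrounded the WKY values (log2 fold change -0.27, SE 0.43, edgeR adjusted p = 0.664). Mmp14, the membrane-type MMP that activates Mmp2 with the help of Timp2, was at 32.9, 35.8 and 28.8 CPM in the WKY and 23.8, 15.8 and 52.8 CPM in the untreated SHRs (log2 fold change -0.24, SE 0.38, edgeR adjusted p = 0.665). Within the SHR group both were highest in replicate 3 and lowest in replicate 2, as was the fibroblast marker sum (8532 and 2345 CPM). Without SHR replicate 3 the log2 fold change was -0.96 for Mmp2 (edgeR adjusted p = 0.0249) and -0.81 for Mmp14 (edgeR adjusted p = 0.0361). Without SHR replicate 2 it was 0.05 for both. Mmp19 had a log2 fold change of -0.07 (SE 0.28).

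By edgeR no lysyl oxidase passed the test, and DESeq2 called 1, Loxl1. Lox was at 10.7, 12.2 and 12.8 CPM in the WKY and 17.9, 6.62 and 35 CPM in the untreated SHRs (log2 fold change 0.57, SE 0.49, edgeR adjusted p = 0.42). Loxl1, needed for elastic fibre upkeep, was at 17, 22.1 and 20.3 CPM in the WKY and 48.1, 21.2 and 109 CPM in the untreated SHRs (log2 fold change 1.41, SE 0.51, edgeR adjusted p = 0.0885). SHR replicate 2 fell within the WKY range, and without it the log2 fold change was 1.79 (edgeR adjusted p = 0.00459); DESeq2 gave 1.39 on all 6 libraries (adjusted p = 0.0168). Loxl2, Loxl3 and Loxl4 were at or below 12.8 CPM in all 12 libraries, with log2 fold changes of -0.48 (SE 0.36), 0.22 (SE 0.29) and 0.10 (SE 0.32).

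**Figure D4:**
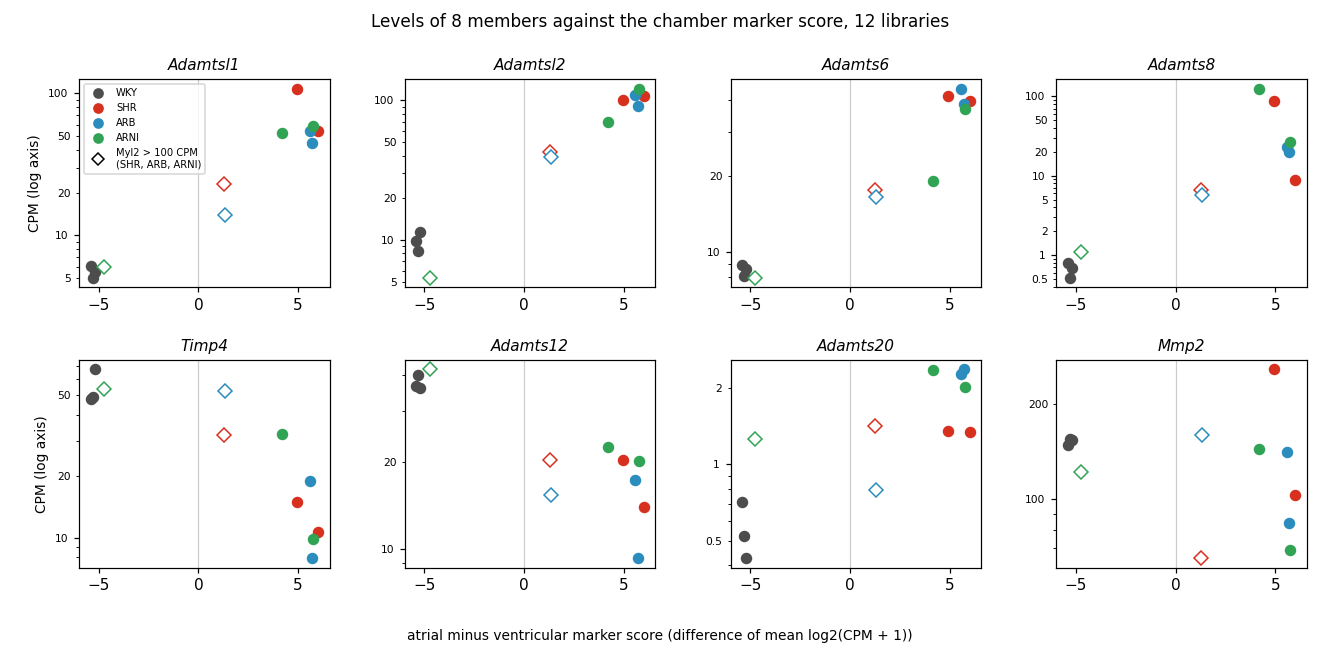
CPM (log axes) of 8 members against the atrial minus ventricular marker score, the difference of the mean log2(CPM + 1) of 10 atrial and 8 ventricular markers, in 12 libraries; colours mark groups and open diamonds the SHR, ARB and ARNI libraries with Myl2 above 100 CPM. ARNI replicate 2, at a score of -4.74, lies beside the WKY libraries (-5.41 to -5.21) for Adamtsl1, Adamts6, Timp4 and Adamts12, and apart from them for Adamts20.

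ARNI replicate 2, an SHR library by its label and by Mettl24 and Ndufa10l1 but with ventricular markers, was nearer the WKY than the SHR mean for 8 of the 9 members called, the exception being Adamts20. Over all genes called the share was 76.8% (941 of 1226). By the adjusted p alone it was nearer the WKY mean for 12 of 14 members, the exceptions being Adamtsl5 and Adamts20, against 74.7% of all genes called. When the 3 libraries of the SHR, ARB and ARNI groups with Myl2 above 100 CPM were left out and the others fitted together, 12 of 40 members tested passed both thresholds between the SHR and WKY groups, the 9 above and Adamtsl5, Loxl1 and Timp1, while the count over all genes went from 1226 to 2092. That fit kept the WKY libraries, with Myl2 at 3489 to 3776 CPM, so the SHR and WKY groups lay further apart in chamber markers. In it Adamtsl2 had a log2 fold change of 3.24 (SE 0.25), Adamtsl1 of 3.69 (SE 0.25) and Timp4 of -2.27 (SE 0.51). With all 12 libraries in 1 fit and the marker score as a covariate, 0 members passed, against 69 of all genes. By edgeR 1 member had an unadjusted p under 0.05. The WKY scores (-5.41 to -5.21) and the SHR scores (1.27 to 6.01) do not meet, and ARNI replicate 2, at -4.74, is the 1 library of an SHR beside the WKY scores in that fit.

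The wider pathway was read from 65 listed genes, of which 53 were tested. In all, 7 were higher and 3 lower in the SHR group at an adjusted p of 0.05, of which 4 and 0 also passed the fold threshold, with a median log2 fold change of 0.22. These shares, 18.9% and 7.55% of the 53, were slightly below those of all genes, 20.6% and 8.89%, and the genes named next are a description. In the plasminogen system, which activates several MMPs, 1 of 6 tested genes differed: Plg, plasminogen itself, was at 0.355 to 0.783 CPM in the WKY and 1.87 to 2.17 CPM in the untreated SHRs (log2 fold change 1.61, SE 0.34, edgeR adjusted p = 0.0243). At no more than 0.783 CPM in the WKY libraries, Plg passed the filter on low counts through its SHR values. Its activator Plat had a log2 fold change of 0.14 (SE 0.23). Of 8 regulators, the proprotein convertase Furin, which activates membrane-bound MMPs and ADAMTS enzymes, rose from 99.5 to 103 CPM in the WKY to 148 to 198 CPM in the untreated SHRs (log2 fold change 0.60, SE 0.13, edgeR adjusted p = 0.0242). Pcsk6, a related convertase, fell from 168 to 196 CPM to 105 to 137 CPM (log2 fold change -0.75, SE 0.12, edgeR adjusted p = 0.0129), and ARNI replicate 2 held it at 227 CPM.

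Of the 11 collagen-modifying enzymes tested, 3 were higher and 1 lower. P4ha3, a prolyl hydroxylase subunit, was at 0.842 to 1.4 CPM in the WKY and 7.4, 1.87 and 9.32 CPM in the untreated SHRs (log2 fold change 2.33, SE 0.58, edgeR adjusted p = 0.036). Fkbp10, a collagen chaperone, and P3h1, a prolyl hydroxylase, had log2 fold changes of 1.15 (SE 0.22) and 0.62 (SE 0.15). Plod1, a lysyl hydroxylase acting before the lysyl oxidases, was at 66.6 to 80.2 CPM in the WKY and 42.6 to 53.6 CPM in the untreated SHRs (log2 fold change -0.73, SE 0.11, edgeR adjusted p = 0.0101). Among 14 proteoglycan and microfibril genes only Ltbp2, which binds fibrillin, passed the test (log2 fold change 1.53, SE 0.41, edgeR adjusted p = 0.0444), and versican, Vcan, did not (log2 fold change 1.02, SE 0.48, edgeR adjusted p = 0.166). Of 5 genes of the cysteine cathepsin list the inhibitor Cst3 was higher (log2 fold change 0.56, SE 0.15), of 6 ADAM sheddases Adam9 was lower (log2 fold change -0.45, SE 0.10), and of 3 procollagen C-proteinase genes 0 passed the test.

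Neither treatment moved a member past the test. Between the ARB and SHR groups 0 of 38 members tested passed, against a background of 0% of 13979 genes, between the ARNI and SHR groups 0 of 39, against 0% of 13956, and between the ARNI and ARB groups 0 of 38, against 0% of 13949 (edgeR). At an unadjusted p under 0.05 edgeR listed 0, 0 and 2 members and 225, 228 and 539 of all genes. DESeq2 called 0 members in each and 3, 7 and 18 of all genes, with 2, 0 and 3 members at an unadjusted p under 0.05. The comparisons with the SHR group share its 3 libraries. ARNI replicate 2 and ARB replicate 3, which held ventricular markers, were kept in these comparisons, and a missed threshold does not show that the groups were alike.

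Between the ARNI and ARB groups the smallest unadjusted p values were those of Adamts1 and Adamts12. Adamts1 was at 41.3, 43.8 and 24.5 CPM in the ARB and 50.1, 56.7 and 98.2 CPM in the ARNI libraries, without overlap (log2 fold change 0.96, SE 0.30, unadjusted p = 0.0161, adjusted p = 0.993 by edgeR). Against the SHR group, with 41.5, 49 and 131 CPM, the ARB libraries had a log2 fold change of -0.97 (SE 0.43, edgeR adjusted p = 1). Adamts12 was at 9.32, 17.3 and 15.4 CPM in the ARB and 20.2, 41.9 and 22.6 CPM in the ARNI libraries, also without overlap (log2 fold change 1.11, SE 0.40, unadjusted p = 0.0317, adjusted p = 0.993 by edgeR). Both genes were thus apart between the ARB and ARNI groups, with an adjusted p far from the threshold, while the ARB and SHR values of Adamts1 overlapped. Mmp15 was at 203 to 294 CPM in the ARB and 138 to 225 CPM in the ARNI libraries (log2 fold change -0.43, SE 0.21, edgeR adjusted p = 0.993).

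Against the untreated SHRs the next smallest p values were those of Mmp14 and Adamts19 under valsartan and of Mmp11, Adamts12 and Adamts3 under sacubitril/valsartan. Mmp14 was at 20.6, 23 and 10.9 CPM in the ARB against 23.8, 15.8 and 52.8 CPM in the untreated SHRs (log2 fold change -0.71, SE 0.44). Adamts19 was at 28.9, 34.6 and 27 CPM against 28.9, 22.1 and 26.8 CPM (log2 fold change 0.25, SE 0.13). Mmp11 was at 18.3, 15.4 and 15.8 CPM in the ARNI against 21.2, 18.8 and 23.4 CPM in the untreated SHRs, all below them (log2 fold change -0.28, SE 0.13). Adamts3, with 2.1 to 3.62 CPM in the ARNI and 3.74 to 7.86 CPM in the untreated SHRs, did not overlap either (log2 fold change -0.76, SE 0.39). None of the 5 had an edgeR adjusted p under 0.999.

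The members that differed most between the SHR and WKY groups had standard errors of 0.40 or more under treatment. Adamtsl2 had a log2 fold change of -0.04 (SE 0.43) under valsartan, Adamtsl1 of -0.68 (SE 0.60), Timp4 of 0.51 (SE 0.74) and Adamts8 of -1.03 (SE 0.99). Adamts17 had -0.32 (SE 0.64) and Adamts6 0.04 (SE 0.40). Under sacubitril/valsartan the same members, in that order, had -0.31 (SE 0.92), -0.61 (SE 0.83), 0.84 (SE 0.72), 0.60 (SE 1.52), -0.70 (SE 0.86) and -0.57 (SE 0.54). Lysyl oxidases ranged from -0.67 (Lox, SE 0.59) to 0.18 (Loxl3, SE 0.30) under valsartan. Over all members tested the largest rise and fall were 0.54 and -1.03 under valsartan and 0.84 and -0.76 under sacubitril/valsartan on the log2 scale.

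**Figure D5:**
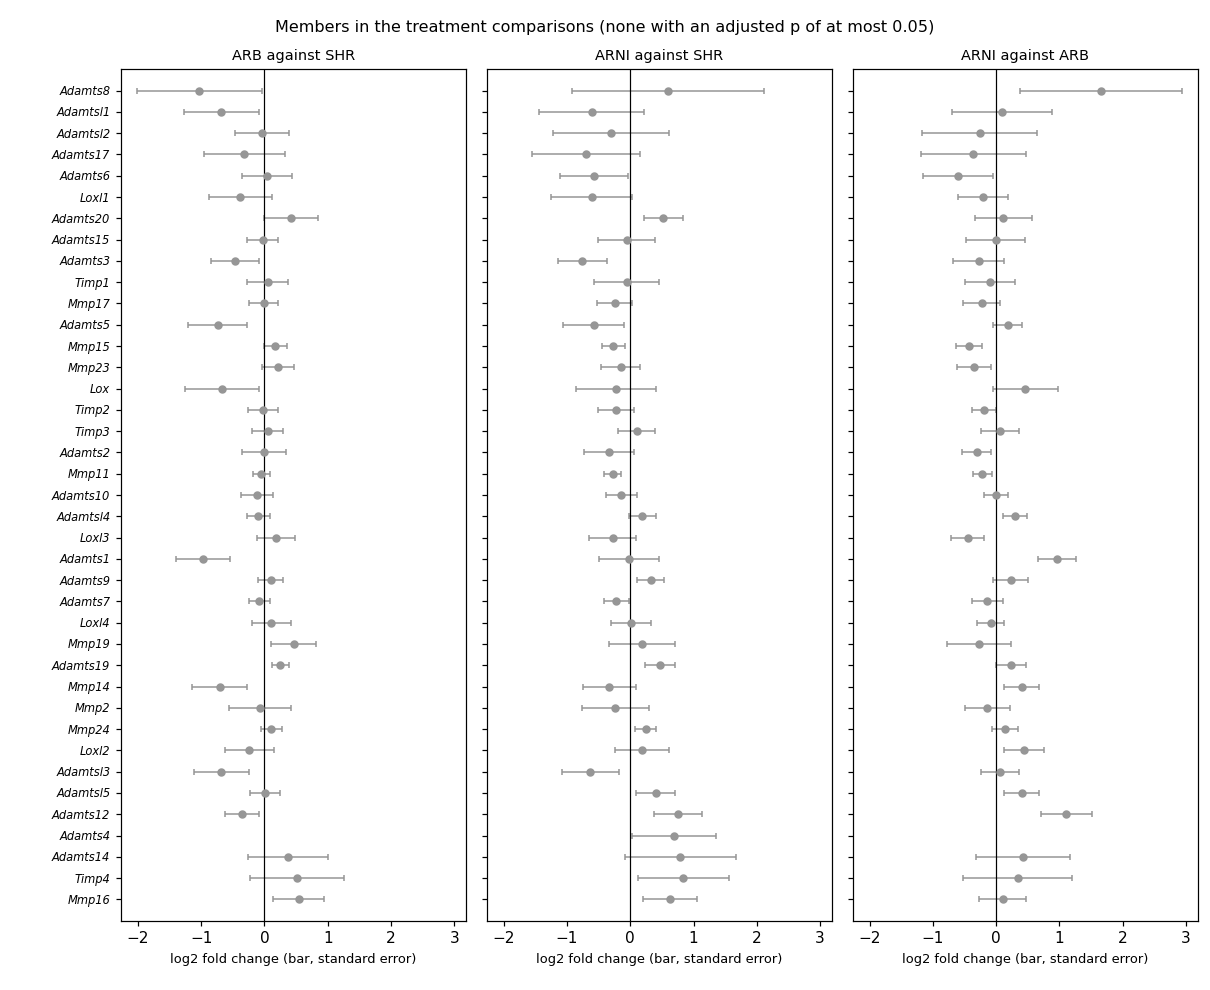
Log2 fold change (points; bars, standard error; 3 libraries a group) of the members tested in the 3 treatment comparisons, in the order of the SHR against WKY fold change; a missing point is a member below the filter on low counts. Most bars cross 0, and Adamts1 and Adamts12 lie farthest from 0 relative to their bars in the ARNI against ARB panel.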

How the data were processed

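Left atrial RNA of 12 rats, 3 libraries a group, was sequenced on a BGIseq-500 (single-end, 50 bases). Per the study's methods each group held 3 rats. The authors filtered reads with SOAPnuke, aligned them with HISAT2 (2.0.4) and Bowtie2 (2.2.5) to Rnor_6.0 and deposited RSEM expected counts per gene, not normalized; tool versions are from the submitters' processing notes. Of all values, 23.6% were not whole (13.4% of member values) and were rounded. The table also holds the authors' fold change and p-value columns for SHR over WKY, which were not used. Totals ran from 11252361 to 15823525 expected counts per library. CPM were expected counts scaled to 1000000 per library, are not per length, and are compared within a gene only.

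Each pair of groups was fitted alone with edgeR 4.0.16 (quasi-likelihood test, TMM scaling, filterByExpr) in R 4.3.3, with Benjamini-Hochberg adjustment over all genes tested; genes were called at an adjusted p of 0.05 or less and a 2-fold or larger change (1 on the log2 scale), and by a second rule from the adjusted p alone. SE is the log2 fold change divided by the square root of the F statistic. On simulated counts for SHR against WKY the fit recovered 100% of 2-fold and 100% of 4-fold changes at a dispersion of 0.02 (13834 genes, 8 false calls) and 18% and 93% at 0.1 (13809 genes, 8 false calls). DESeq2 1.42.0 was an alternative. Members and lists were chosen with earlier results of these data known. Genes named are those called by either rule, the 3 smallest p in each comparison, the most abundant tested member of each role, the 5 with the widest range, and a set list of TIMPs, lysyl oxidases, Mmp2, Mmp9, Mmp14, Adamts1, Adamts4, Adamts5 and Adamts15; others were named after their values were seen. Same-numbered libraries correlated in their deviations from group means at 0.0257, -0.0473 and -0.0747 for SHR and WKY and 0.417, -0.241 and -0.254 for ARB and SHR. The values were 0.509, 0.464 and 0.185 for ARNI and SHR, and 0.516, -0.445 and -0.153 for ARNI and ARB. Every value was positive for ARNI and SHR only. The labels give no pairing of rats by number, and what the same-numbered libraries share was not tested.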

Additional observations from a re-analysis of the deposited data

How the results depend on the processing

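Between the SHR and WKY groups 9 members and 1226 of all genes were called. DESeq2 called 8 members (6 shared) and 1595 of all genes, and RLE scaling 7 and 1246. Library totals alone gave 9 and 1348, and moved the median over all genes tested from 0.01 to 0.15 on the log2 scale. No filter on low counts gave 8 and 1238. The counts were 1 (Adamtsl1) and 579 in 1 fit of all 12 libraries, and 0 and 69 with the marker score as covariate. They were 5 and 681 with the replicate block, and 2 to 11 and 348 to 2205 when 1 library was left out. The labels number the libraries but give no pairing of rats, and the cause of these losses was not tested. With the block the calls of Adamts15, Adamts17, Adamts20 and Timp4 were lost between SHR and WKY. In the ARNI against SHR comparison, where same-numbered libraries correlated positively, 0 members were called with or without the block. Every treatment comparison kept 0 members called in all alternatives run. With the score as covariate the SHR over WKY log2 value turned to -0.15 for Adamts1, -0.27 for Adamts15, -1.15 for Adamts17, -0.12 for Adamts2, -0.14 for Adamts6, -0.04 for Adamts7, -0.56 for Adamtsl2, -1.19 for Lox, -0.61 for Loxl3, -0.35 for Loxl4, -0.19 for Mmp17, 0.10 for Mmp2, 0.02 for Mmp24, -0.30 for Timp1, -0.38 for Timp3 and 0.64 for Timp4, with a smallest edgeR adjusted p of 0.351. With the score it also turned to -0.49 for Adamts9 and -0.27 for Adamts10 (edgeR adjusted p = 0.351 and 0.584). Without the SHR, ARB and ARNI libraries with Myl2 above 100 CPM, but with the WKY libraries kept, it turned to 0.06 for Mmp14 and for Mmp2 and 0.09 for Mmp19. With library totals alone it turned to 0.09 for Mmp19. When 1 library was left out it ran from -0.42 to 0.49 for Adamts1, -0.13 to 0.89 for Adamts5, -0.05 to 0.97 for Lox, -0.10 to 0.46 for Loxl3, -0.18 to 0.34 for Loxl4, -0.81 to 0.05 for Mmp14, -0.41 to 0.08 for Mmp19 and -0.96 to 0.05 for Mmp2. The next counts use the adjusted p alone, with no fold threshold. Of the values of members so called between the SHR and WKY groups, 102 kept the call under the alternatives, 86 lost it and 7 changed sign. Of the values of named members not called, those of the treatment comparisons included, 15 passed, 23 changed sign and the rest stayed. Members with a few reads a library, among them the MMP cluster, are limited by depth.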

Other observations

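The balance of the gelatinase Mmp2 and its inhibitor Timp2 was looked at after the values were seen, so it is given as a description with no test. The ratio of Mmp2 to Timp2 counts was 1.01, 1.03 and 0.916 in the WKY, 0.466, 0.398 and 0.764 in the SHR, 0.398, 0.54 and 0.731 in the ARB and 0.354, 0.867 and 0.574 in the ARNI libraries. All 9 SHR, ARB and ARNI libraries were below the WKY libraries, and ARNI replicate 2, with ventricular markers, was the nearest to them. The ratio of the 2 genes' counts is not a ratio of molecules, since their lengths differ.

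Mmp28 was uneven in a way that no group explains. It was at 0.978 CPM in WKY replicate 3, 1.45 CPM in SHR replicate 3 and 0.5 CPM in ARB replicate 3, and had 0 reads in the 9 other libraries. Mmp16, a membrane-bound MMP below the filter in the SHR and WKY libraries, was at 0.0898 to 0.362 CPM in the WKY libraries and at 0.499 to 1.5 CPM in the other 9, with ARNI replicate 2 at 0.799 CPM.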
